A study of Mus musculus with 6 samples.

Results

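The genes of mitosis and the mitotic spindle were followed in liver RNA from mice with sickle cell disease. The set held 38 genes, chosen by symbol from the regulators and machinery of cell division, of 24421 genes in the count tables, and all 38 were found there. RNA sequencing was done on 6 liver libraries taken at 7 months of age, 3 labelled SS and 3 labelled AS. All 6 came from the Townes line, in which the mouse alpha-globin locus carries the human gene (Hbatm1(HBA)Tow) and the mouse beta-globin locus carries human gamma- and beta-globin. SS mice had the sickle allele Hbbtm2(HBG1,HBB*)Tow alone. AS mice, the controls, had that allele and the normal human allele Hbbtm3(HBG1,HBB)Tow. No library came from a mouse with mouse globin genes, so the comparison is of the sickle homozygote with its heterozygous counterpart. The labels name no sex, litter, batch or pooling, and do not state that replicates were separate animals, so the p-values below measure the spread between libraries, which may be partly technical.

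When a cell divides, cyclin B and the kinase CDK1 drive it into mitosis, a spindle of microtubules forms, and the kinetochores on the chromosomes attach to it. A checkpoint holds the anaphase promoting complex in check until attachment is complete, after which CDC20 activates that complex, the sister chromatids separate and the cytoplasm is cleaved. Most of these genes are transcribed only late in the cycle of a dividing cell, under the control of the factors B-MYB and FOXM1 and of the repressive DREAM complex. Adult hepatocytes divide rarely, and other cells that a liver sample can hold, such as red cell precursors and leukocytes, can divide as well. In bulk RNA, fewer cells that express a gene and less of its RNA per cell cannot be told apart.

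The factors named above are known to act through a promoter element called the cell cycle genes homology region (CHR), and the factor NF-Y binds the CCAAT box that often accompanies it. The promoter sequences below are shown because many members rose, and this element is known from genes of their kind. They run 5′ to 3′ on the strand of the gene, from 150 bases before to 30 bases after the annotated start (RefSeq, GRCm38.p6). Capitals mark each TTTGAA, the CHR, and each CCAAT, which read TTCAAA and ATTGG where they lie on the other strand. Cdc20, Hmmr and Racgap1 had the lowest adjusted p-values of the set, Cdk1 and Ccnb2 encode the kinase that starts mitosis and one of its cyclins, and Ccnf had the smallest change.
Cdc20, chr4:118437314-118437493 (- strand): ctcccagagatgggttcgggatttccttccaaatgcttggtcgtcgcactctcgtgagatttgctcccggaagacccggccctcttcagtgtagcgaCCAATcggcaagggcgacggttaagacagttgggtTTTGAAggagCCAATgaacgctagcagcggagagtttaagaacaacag
Hmmr, chr11:40733408-40733587 (- strand): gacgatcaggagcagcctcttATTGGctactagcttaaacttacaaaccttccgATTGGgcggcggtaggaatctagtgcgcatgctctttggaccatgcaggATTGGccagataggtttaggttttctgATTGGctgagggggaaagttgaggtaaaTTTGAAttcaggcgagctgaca
Racgap1, chr15:99651627-99651806 (- strand): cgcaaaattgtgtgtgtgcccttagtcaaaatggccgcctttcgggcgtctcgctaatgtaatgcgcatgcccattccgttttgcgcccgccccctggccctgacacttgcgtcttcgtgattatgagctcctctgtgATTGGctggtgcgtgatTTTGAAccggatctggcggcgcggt
Cdk1, chr10:69352883-69353062 (- strand): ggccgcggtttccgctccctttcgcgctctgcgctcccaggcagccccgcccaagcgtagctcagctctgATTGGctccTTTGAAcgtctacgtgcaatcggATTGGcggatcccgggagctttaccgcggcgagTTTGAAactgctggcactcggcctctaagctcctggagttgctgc
Ccnb2, chr9:70421525-70421704 (- strand): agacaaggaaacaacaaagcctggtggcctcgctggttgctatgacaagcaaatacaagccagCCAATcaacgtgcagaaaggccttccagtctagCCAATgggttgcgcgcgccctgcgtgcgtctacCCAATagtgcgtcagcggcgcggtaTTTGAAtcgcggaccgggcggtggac
Ccnf, chr17:24251380-24251559 (- strand): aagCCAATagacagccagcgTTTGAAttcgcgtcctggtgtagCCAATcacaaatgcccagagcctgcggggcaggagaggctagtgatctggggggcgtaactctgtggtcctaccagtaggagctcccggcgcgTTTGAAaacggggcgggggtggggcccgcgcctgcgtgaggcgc

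Within the stretch shown, the CHR of Cdc20 began 18 bases before the start, in Cdk1 15 and 71 bases before it, and in Ccnf 14 and 130 bases before it. In Hmmr, Racgap1 and Ccnb2 it began at base 9, 6 and 5 after the start. Among the 33 members with a promoter in the table, each 300 bases long (250 before to 50 after the start) and searched on both strands, 25 held TTTGAA (75.8%), 26 held CCAAT (78.8%) and 22 held both (66.7%). Over the promoters of all 10069 tested genes matched to the table the shares were 14.8%, 42.9% and 7.24%, and over the 27025 genes with a RefSeq promoter they were 20.2%, 41.1% and 8.97%. The 47 matched genes of a further list of mitosis genes, described below, held TTTGAA in 55.3%, CCAAT in 66.0% and both in 42.6%. The 26 matched S phase genes held TTTGAA in 11.5%. TTTGAA stood in 14 of 17 promoters of members called higher, as defined below, and in 11 of 16 of members not called or not tested, among them Ccnf. A match of letters is a description and not a bound site.

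Mitotic genes of each stage were among those that rose in SS liver, although many members did not pass the test. In 35 of the 38 members every SS library lay above every AS library, an ordering that 12.4% of all genes with at least 15 counts showed, while 7.95% of those genes showed the reverse. Of the members, 20 were called higher (adjusted p under 0.05 in edgeR's quasi-likelihood fit, Benjamini-Hochberg adjusted across the 12622 genes that were tested) and 0 lower, against a background of 0.911% called higher and 0.0555% called lower among all tested genes. Fitted changes of the 36 members tested ran from 0.35 to 6.99 on the log2 scale, and all 36 were above 0. The members summed to 71.5, 45.4 and 51.0 CPM (read counts set relative to the gene reads of the library, with TMM factors) in AS replicates 1, 2 and 3, and to 263, 335 and 404 CPM in SS replicates 1, 2 and 3, a ratio of group means of 5.96.

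These counts have limits. In 19 members every AS library lay below the level of the filter on low counts (0.952 CPM, here without TMM factors), so those that passed did so through the SS libraries, and 11 of the 20 members called were among them. Among all 228 genes that passed in this way 16.7% were called higher. Melk and Anln did not pass. Fitted without the filter, all 38 lay higher in SS, and their median was 3.54 on the log2 scale, where that of all genes was 0.23. The number called depended on the libraries: it was 2, 6 and 8 without AS replicate 1, 2 or 3, and 11, 5 and 12 without SS replicate 1, 2 or 3. It was 30 by DESeq2 and 2 by limma-voom, which called Hmmr and Mki67. Leaving out AS replicate 1 together with SS replicate 3 gave 23, and with AS replicates 2 and 3 summed to 1 library it was 7. Those AS libraries were the closest pair, with a chi-square per gene of 4.05, above sampling noise, and every other pair had 29.2 to 170.

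The libraries held 6670011 to 13700194 gene reads, and the members 282 to 624 reads in AS and 1992 to 5160 in SS. The share of alignment records outside annotated genes was 40.7% to 42.2% in AS and 43.0%, 43.8% and 53.9% in SS, the last in SS replicate 1 (Wilson 95% interval 53.93% to 53.97%). Records not aligned made up 3.52% to 3.84% in AS and 4.32% to 5.60% in SS. Records with more than 1 alignment made up 18.4% to 22.8% in AS and 14.7% to 16.2% in SS. Records ambiguous between genes made up 0.510% to 0.537% in AS and 0.291% to 0.464% in SS. Each of these measures, and the share outside annotated genes, separated the groups. SS replicate 1 had the lowest summed level of members among the SS libraries. The part of these shares in the result was not tested.

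**Figure D1:**
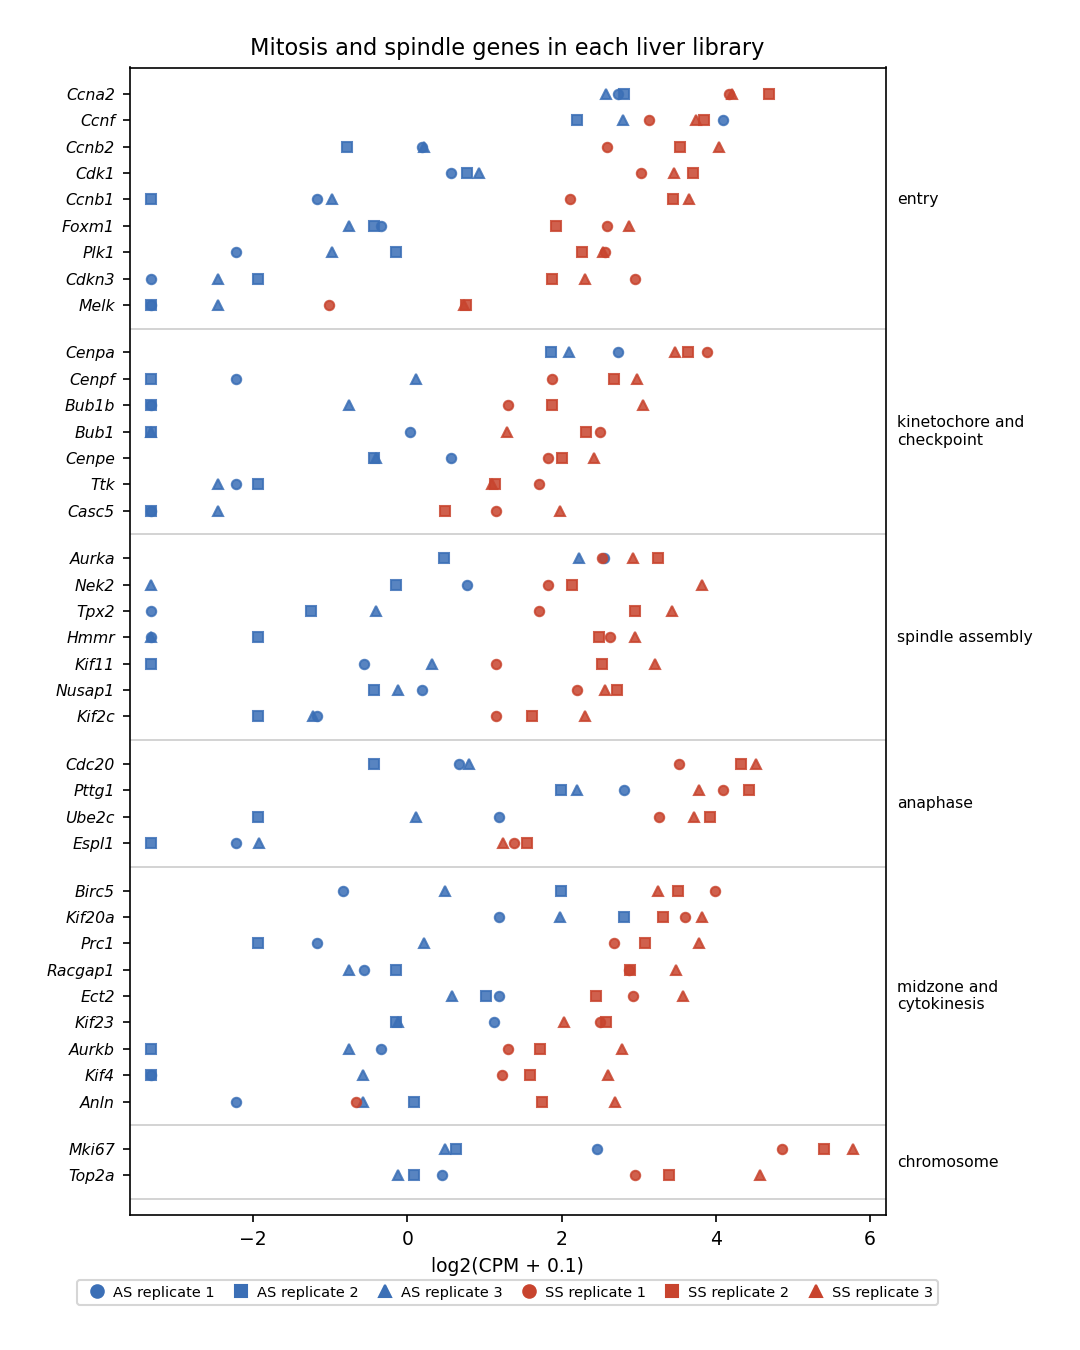
Level of each of the 38 members in each library, as log2(CPM + 0.1), with genes grouped by role, AS libraries in blue and SS libraries in red, and symbols for replicates 1, 2 and 3. Points at the left edge are libraries with 0 counts; the red points lie to the right of all blue points in every row except Ccnf, Aurka and Anln.

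Of 9 genes that carry a cell into mitosis, 7 were called higher (background 0.911% of all tested genes). Cdk1, the mitotic kinase, stood at 1.38, 1.61 and 1.80 CPM in the AS libraries and at 8.05, 12.9 and 10.9 CPM in SS (replicates 1, 2 and 3, as in all lists below). All 3 SS libraries lay above 8 CPM and all AS libraries below 2, and the change in log2 units was 2.72 (SE 0.402, edgeR adjusted p = 0.0131). Ccnb1, which encodes cyclin B1, had 0.345, 0 and 0.409 CPM in the AS libraries and 4.22, 10.8 and 12.4 CPM in SS. SS replicate 1 was the lowest of its group, though still 10 times the AS values or more, and the change was 4.97 (SE 0.733, edgeR adjusted p = 0.0131). Ccnb2, for cyclin B2, went from 1.04, 0.483 and 1.06 CPM to 5.94, 11.5 and 16.4 CPM (log2 difference 3.65, SE 0.528, adjusted p = 0.0119 by edgeR). Ccna2, for cyclin A2, which also acts in S phase, had a higher AS level of 6.46 ± 0.527 CPM (SD, n = 3) and reached 20.7 ± 4.40 CPM in SS, a rise of 1.68 (SE 0.2995, edgeR adjusted p = 0.0341).

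Of the kinases and regulators around this core, Plk1, Foxm1 and Cdkn3 were called higher. Plk1, a kinase that promotes mitotic entry and spindle assembly, had 11 counts over the AS libraries and 182 over the SS libraries, with 4.71 to 5.81 CPM in SS (log2 difference 3.65, SE 0.669, adjusted p = 0.0379 by edgeR). Foxm1, the transcription factor of late cell cycle genes, went from 0.609 ± 0.105 to 5.61 ± 1.77 CPM (log2 difference 3.19, SE 0.564, adjusted p = 0.0332 by edgeR). The phosphatase gene Cdkn3, whose product binds cyclin-dependent kinases, had 0, 0.161 and 0.0818 CPM in AS, from 2 counts, and 7.65, 3.55 and 4.85 CPM in SS. Unlike the cyclin B genes, Cdkn3 was highest in SS replicate 1. The ratio of its summed counts, relative to the library sizes, was 67.1, with a 95% counting interval of 18.3 to 559 that covers counting error only (adjusted p = 0.0110 by edgeR). Melk, a kinase gene, had 1 AS count and 45 SS counts, and its 3 SS libraries (0.396, 1.60 and 1.56 CPM) lay above the AS libraries.

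Ccnf was the exception among these genes. It encodes cyclin F, a ubiquitin ligase subunit that limits centrosome duplication. AS replicate 1 held 16.9 CPM, above all SS libraries (8.71, 14.3 and 13.2 CPM), whereas AS replicates 2 and 3 held 4.51 and 6.87 CPM. The change was 0.35 (95% interval -0.68 to 1.39, edgeR adjusted p = 0.768). With 1 library left out it ranged from 0.0075 without AS replicate 2 to 1.06 without AS replicate 1. With AS replicates 2 and 3 summed it was 0.077. Of the 7 calls in this group, Plk1 and Foxm1 were lost whichever library was left out, with adjusted p-values from edgeR of up to 0.177 and 0.170. The call of Ccna2 was lost without any library except SS replicate 3 (up to 0.203), that of Cdk1 without any AS library or SS replicate 2 (up to 0.0860), and that of Ccnb2 without SS replicate 2, AS replicate 1 or AS replicate 2 (up to 0.0757). Ccnb1 was lost without AS replicate 1 or SS replicate 2 (up to 0.0844) and Cdkn3 without AS replicate 1 or AS replicate 3 (up to 0.0632). The transcripts of Ccnb1-ps and Gm12856 are near copies of Ccnb1, and Exosc9 overlaps 510 exonic bases of Ccna2 on the other strand, so counts of these members are less certain. Exosc9 itself had a log2 change of 0.34 (edgeR adjusted p = 0.617).

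Kinetochore and checkpoint genes were higher in SS liver in all 7 cases by their ranges (background 12.4% of all genes with at least 15 counts). Of these, 2 passed the test (background 0.911% of all tested genes called higher). Bub1, Bub1b, Ttk, Casc5 and Cenpf lay below the filter level in every AS library, and of all genes that passed in that way 16.7% were called higher. Ttk, which encodes the checkpoint kinase MPS1, had 3 counts in AS, 1 in each library, and 24, 29 and 26 counts in SS. The groups were far apart, with a ratio of 20.9 (counting interval 6.90 to 104) and an edgeR adjusted p of 0.0446. Casc5, now called Knl1, encodes the kinetochore scaffold that recruits BUB1. It had 1 AS count, in replicate 3, and 16, 18 and 49 SS counts (edgeR adjusted p = 0.0446), and its fitted log2 change of 5.67 became 7.57 without AS replicate 3, where the AS libraries were all at 0. Both calls were lost whichever library was left out, with adjusted p-values from edgeR of up to 0.240 for Ttk and 0.215 for Casc5.

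The other 5 kinetochore genes did not pass. Bub1, for a kinase of checkpoint signalling, had 0.921, 0 and 0 CPM in the AS libraries and 5.54, 4.86 and 2.35 CPM in SS. All of its 8 AS counts came from AS replicate 1, and the log2 change of 3.74 had an SE of 1.07 (edgeR adjusted p = 0.166). It was 8.47 without that library, where AS had no count, and 3.06 without AS replicate 3. Bub1b, for the checkpoint protein BUBR1, had AS counts in replicate 3 only, and its SS values spread from 2.38 to 8.22 CPM (log2 difference 4.48, adjusted p = 0.0768 by edgeR). Its change was 8.54 without AS replicate 3, where AS had no count, and 3.81 without SS replicate 3. The groups of Bub1 did not overlap, nor did those of Bub1b. Cenpf, for a kinetochore protein that peaks in G2 and mitosis, had 0.115, 0 and 0.981 CPM in AS libraries and 3.56, 6.31 and 7.75 CPM in SS libraries (log2 difference 3.76, adjusted p = 0.0824 by edgeR). Without AS replicate 3 the change of Cenpf was 6.23 and was called (edgeR adjusted p = 0.0410). Cenpe, for a kinesin that carries chromosomes to the spindle equator, had 1.38, 0.644 and 0.654 CPM in AS libraries and 3.43, 3.92 and 5.24 CPM in SS libraries (log2 difference 2.22, adjusted p = 0.129 by edgeR). Cenpa encodes the histone variant that marks the centromere. It stood at 4.76 ± 1.59 CPM in the AS libraries and 12.6 ± 1.87 CPM in SS, with no overlap and a log2 change of 1.40 (95% interval 0.61 to 2.19, edgeR adjusted p = 0.120).

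Among 7 genes of spindle assembly, Hmmr, Tpx2 and Nusap1 were called higher (background 0.911% of all tested genes). Hmmr encodes a receptor of hyaluronan that also binds spindle microtubules. It had 1 count over the AS libraries and 46, 76 and 98 counts in SS, or 6.07, 5.51 and 7.67 CPM. The 3 SS levels lay close together, and the ratio was 175 (counting interval 31.0 to 6932), at an adjusted p of 0.00659 by edgeR. Tpx2, which activates Aurora A on the spindle, had 0, 0.322 and 0.654 CPM in the AS libraries and 3.17, 7.61 and 10.6 CPM in SS (log2 difference 4.32, SE 0.833, adjusted p = 0.0444 by edgeR). SS replicate 1 was lowest, and the change was 5.55 without AS replicate 3. Nusap1, which bundles microtubules near chromosomes, went from 0.833 ± 0.197 to 5.58 ± 1.00 CPM (log2 difference 2.72, SE 0.516, adjusted p = 0.0433 by edgeR). The call of Hmmr was lost without AS replicate 1 (edgeR adjusted p = 0.0507), that of Tpx2 without any library except SS replicate 1 (up to 0.194) and that of Nusap1 whichever library was left out (up to 0.215). The fitted change of Hmmr, 6.99 with all libraries, was 9.14 without AS replicate 2, where AS had no count, and 6.29 without AS replicate 3.

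The remaining spindle genes did not pass the test. Kif2c, for a kinesin that takes microtubules apart, came closest, with 0.161 to 0.345 CPM in AS libraries and 2.11, 2.97 and 4.85 CPM in SS libraries (log2 difference 3.48, adjusted p = 0.0540 by edgeR). Kif11, for the kinesin that pushes spindle poles apart, had 0.576, 0 and 1.14 CPM in AS libraries and 2.11, 5.66 and 9.15 CPM in SS libraries (log2 difference 3.15, adjusted p = 0.146 by edgeR). Neither gene overlapped between the groups, and the change of Kif11 was 4.11 without AS replicate 3. Nek2, for a kinase of centrosome separation, had 1.61, 0.805 and 0 CPM in AS libraries and a log2 difference of 3.23 (edgeR adjusted p = 0.190). Nek2 had the widest spread over the SS libraries of these 7 genes, at 3.43, 4.28 and 14.1 CPM, and its change was 2.29 without SS replicate 3, 2.55 without AS replicate 3 and 4.47 without AS replicate 1. Aurka, which encodes Aurora A, stood at 5.76, 1.29 and 4.58 CPM in the AS libraries and at 5.67, 9.43 and 7.51 CPM in SS. The groups overlapped, since AS replicate 1 lay just above SS replicate 1, and the log2 change was 0.94 (95% interval -0.19 to 2.08, edgeR adjusted p = 0.473). Like Ccnf, Aurka was most abundant among AS libraries in replicate 1. Its fitted change was 1.30 without that library and SS replicate 3, and ranged from 0.53 to 1.30 with 1 library left out.

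All 4 genes of the step into anaphase were called higher (background 0.911% of all tested genes). Cdc20, which activates the anaphase promoting complex, had 1.497, 0.644 and 1.64 CPM in the AS libraries and 11.3, 19.9 and 22.8 CPM in SS. The lowest SS library was more than 6 times the highest AS library, and the change was 3.78 (SE 0.453, edgeR adjusted p = 0.00417). Cdc20 had the lowest adjusted p of the set and was the only member called in all 6 fits that left out a library, with log2 changes of 3.50 to 4.02. Ube2c, the ubiquitin-conjugating enzyme that works with the complex, went from 2.19, 0.161 and 0.981 CPM to 9.50, 15.01 and 13.0 CPM (log2 difference 3.44, SE 0.611, adjusted p = 0.0340 by edgeR). Pttg1 encodes securin, which inhibits the protease that cuts cohesin. It stood at 5.09 ± 1.61 CPM in the AS libraries and at 17.4 ± 3.90 CPM in SS (log2 difference 1.77, SE 0.350, adjusted p = 0.0472 by edgeR). Espl1, for that protease, separase, had 3 counts in AS and 19, 39 and 29 in SS, a ratio of 23.03 (counting interval 7.62 to 114), at an adjusted p of 0.0466 by edgeR.

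The calls of Ube2c and Espl1 were lost whichever library was left out (edgeR adjusted p up to 0.155 and 0.228), and that of Pttg1 without any library except SS replicate 3 (up to 0.258). Without AS replicate 1, the highest AS library, the change of Ube2c was 4.24, and without AS replicate 3 that of Espl1 was 5.02. Tnnc2 overlaps 592 exonic bases of Ube2c on the other strand and had 0 counts in AS and 11 in SS.

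In the spindle midzone and the cleavage furrow, Racgap1 and Prc1 were called higher (background 0.911% of all tested genes). Racgap1, a subunit of the centralspindlin complex that positions the furrow, had 0.576, 0.805 and 0.491 CPM in the AS libraries and 7.26, 7.32 and 11.1 CPM in SS. The AS libraries were tightly grouped below 1 CPM, and the change was 3.79 (SE 0.493, edgeR adjusted p = 0.00738). Prc1, which crosslinks midzone microtubules, went from 0.345, 0.161 and 1.06 CPM to 6.33, 8.34 and 13.6 CPM (log2 difference 4.01, SE 0.6335, adjusted p = 0.0184 by edgeR). The call of Racgap1 was lost without AS replicate 1 (edgeR adjusted p = 0.0507). The call of Prc1 was lost without SS replicate 2, AS replicate 1 or AS replicate 2 (up to 0.0972), and its change was 5.09 without AS replicate 3. Rccd1 overlaps 911 exonic bases of Prc1 on the other strand and had a log2 change of 0.90 (edgeR adjusted p = 0.494).

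The other 7 genes of this step were not called. Birc5, which encodes survivin, stood at 0.461, 3.87 and 1.31 CPM in the AS libraries and at 15.7, 11.3 and 9.39 CPM in SS (log2 difference 2.75, adjusted p = 0.0774 by edgeR). Without AS replicate 2, the highest AS library, the change of Birc5 was 3.70 and was called (edgeR adjusted p = 0.0483). Its partner in the chromosomal passenger complex, the Aurora B gene Aurkb, had 0.691, 0 and 0.491 CPM in AS libraries and 2.38, 3.19 and 6.81 CPM in SS libraries (log2 difference 3.26, adjusted p = 0.120 by edgeR). Birc5 was highest in SS replicate 1 and Aurkb in SS replicate 3, so the pair did not share an order of SS libraries. Ect2, for the exchange factor that activates RhoA at the furrow, had 1.84 ± 0.408 CPM in the AS libraries and 8.23 ± 3.28 CPM in SS (log2 difference 2.17, adjusted p = 0.0653 by edgeR). The kinesin genes Kif4, Kif23 and Kif20a, whose products act at the midzone, did not overlap between groups. Kif20a had 2.19, 6.93 and 3.84 CPM in AS libraries and 12.01, 9.86 and 14.1 CPM in SS libraries (log2 difference 1.49, adjusted p = 0.177 by edgeR). Kif23, for the partner of Racgap1 in centralspindlin, had 2.07, 0.805 and 0.818 CPM in AS libraries and 5.54, 5.87 and 3.99 CPM in SS libraries (log2 difference 2.05, adjusted p = 0.150 by edgeR). The change of Kif23 was 2.63 without AS replicate 1. Kif4 had a log2 difference of 3.94 (edgeR adjusted p = 0.120) and 2.24, 2.90 and 5.95 CPM in SS libraries. Its change was 8.19 without AS replicate 3, where AS had no count. Kif4, on the X chromosome, was detected in AS replicate 3 alone among AS libraries, and Pdzd11 overlaps 832 of its exonic bases on the other strand. Anln, for the furrow scaffold anillin, held 0.115, 0.967 and 0.572 CPM in the AS libraries and 0.528, 3.26 and 6.34 CPM in SS, and SS replicate 1 lay among the AS libraries.

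Mki67 and Top2a, which act on the chromosomes themselves, both rose. Mki67 encodes Ki-67, the protein that coats mitotic chromosomes and is used to stain dividing cells. It was the most abundant member by CPM in SS, at 28.8, 42.3 and 54.5 CPM against 5.41, 1.45 and 1.31 CPM in AS. AS replicate 1 stood well above the other AS libraries, and the log2 change of 3.94 (SE 0.535, edgeR adjusted p = 0.00903) was 4.92 without it. Top2a, the topoisomerase that untangles sister chromatids, had 1.27, 0.967 and 0.818 CPM in the AS libraries and 7.65, 10.4 and 23.8 CPM in SS (log2 difference 3.78, SE 0.534, adjusted p = 0.0110 by edgeR). SS replicate 3 stood well above the other SS libraries, and the change was 3.14 without SS replicate 3. The call of Mki67 was lost without AS replicate 2 or SS replicate 2 (edgeR adjusted p up to 0.0593) and that of Top2a without AS replicate 1, 2 or 3 (up to 0.0723).

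**Figure D2:**
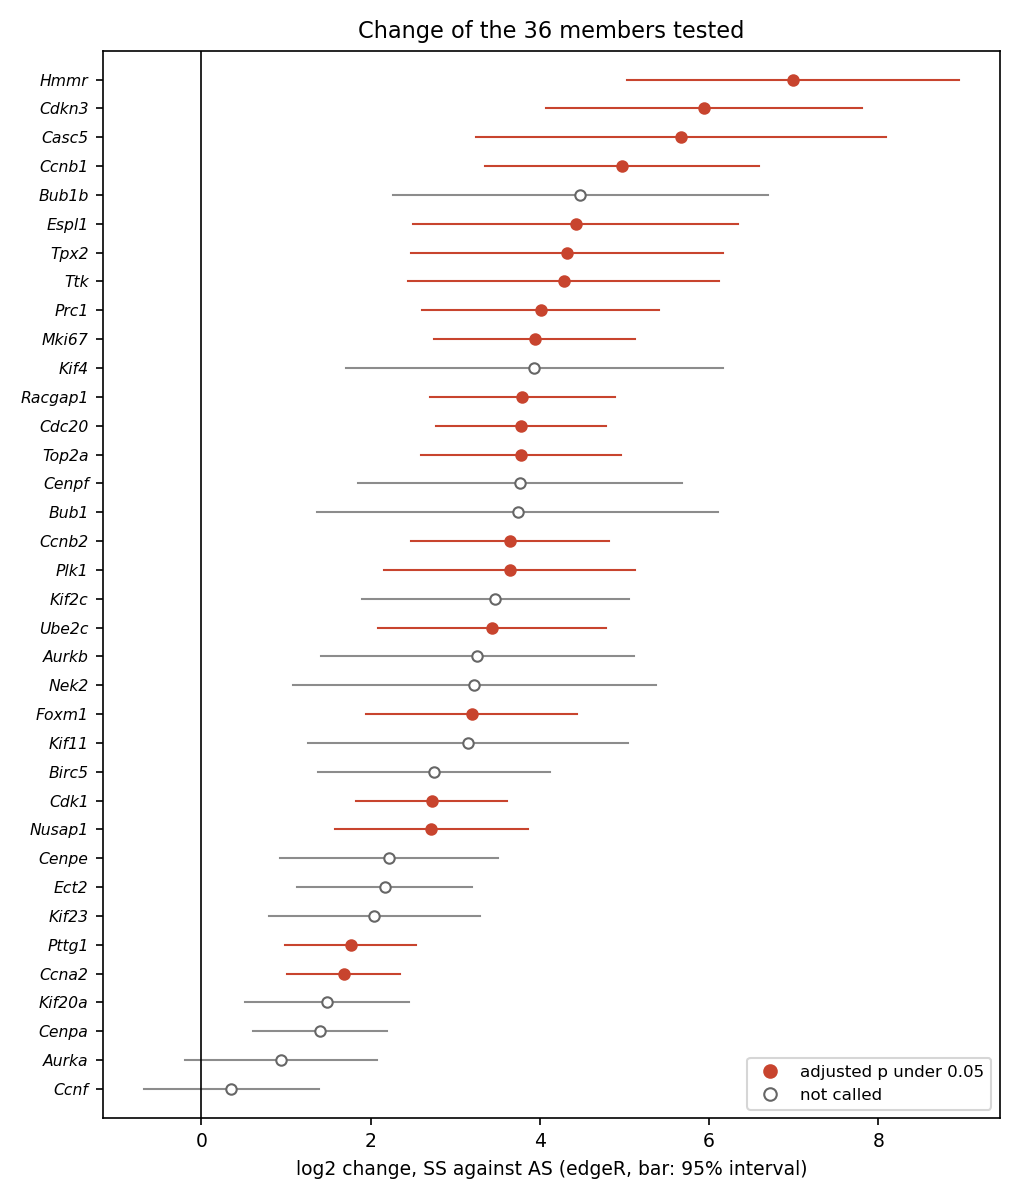
Fitted log2 change of the 36 members tested, SS against AS, sorted by size, with 95% intervals from edgeR's quasi-likelihood fit; filled red points had an adjusted p under 0.05. The intervals of Ccnf and Aurka include 0, and those of Casc5 and Bub1, with 1 and 8 AS counts, are the widest.

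The size of the change went with the AS level, although both rest on the same AS libraries. The 6 members with an AS mean of at least 3 CPM were Ccnf, Ccna2, Pttg1, Cenpa, Kif20a and Aurka, a limit chosen after the values were seen. They held 60.6% of the summed AS level and had log2 changes of 0.35 to 1.77. The other 32 members had AS means of 0.0273 to 2.72 CPM and, for the 30 tested, log2 changes of 2.05 to 6.99. They made up 39.4% of the summed level in AS and 75.3% in SS. Cdc23 overlaps 1271 exonic bases of Kif20a on the other strand, at 10.2 ± 2.42 CPM in the AS libraries and 15.7 ± 6.08 CPM in SS, and without a stated strand setting its reads cannot be told apart from those of Kif20a.

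Per length of exon, in RPKM (CPM divided by the length of the merged exons in kilobases), the order of the members differed from that by CPM. In SS the highest levels were those of Cdc20 (9.65 RPKM, range 6.08 to 12.2), Pttg1 (8.70 RPKM), Ccnb2 (7.36 RPKM) and Ccna2 (5.06 RPKM), whose ranges over libraries overlapped with their neighbours in this order. Mki67, with 10061 exonic bases, was sixth at 4.16 RPKM. In AS the order began with Pttg1 (2.55 RPKM), Ccna2 (1.58 RPKM) and Aurka (1.53 RPKM), and Cdc20 was at 0.674 RPKM.

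SS replicate 3 had the highest SS value of 22 members, SS replicate 2 of 10 and SS replicate 1 of 6, while SS replicate 1 had the lowest of 24. The members that were highest in SS replicate 1 were Cdkn3, Plk1, Bub1, Ttk, Cenpa and Birc5. Among AS libraries, replicate 1 had the highest value of 16 members, and 14 members had no read in at least 1 AS library. No member was at 0 in any SS library. The kinetochore genes varied least between SS libraries as a sum, at 34.8, 34.4 and 40.4 CPM, while the pair Mki67 and Top2a stood at 36.4, 52.7 and 78.3 CPM.

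**Figure D3:**
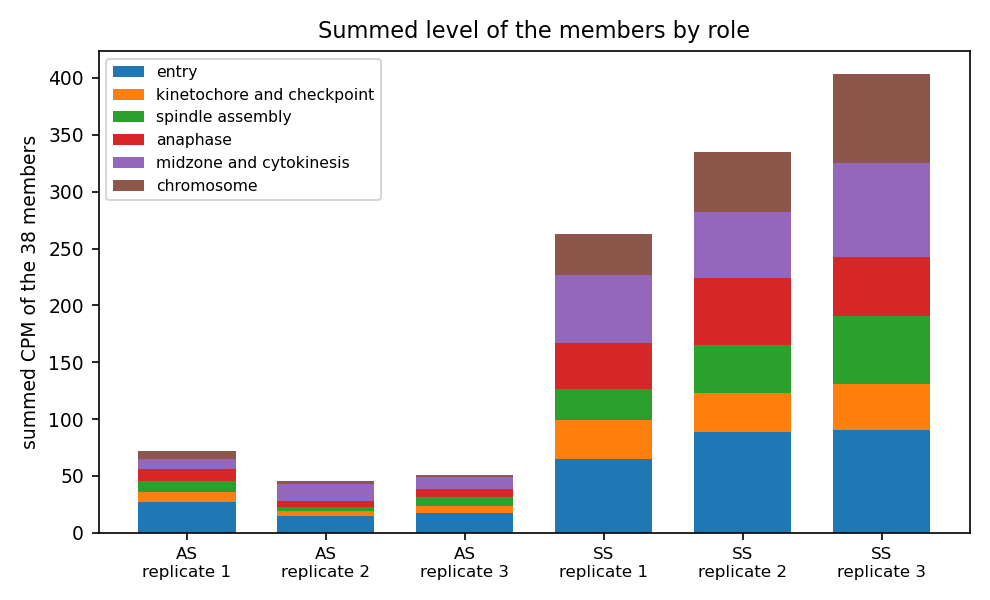
Summed CPM of the 38 members in each library, stacked by role. The 3 AS libraries reach 45.4 to 71.5 CPM and the 3 SS libraries 263 to 404 CPM, and every role is larger in each SS library than in any AS library.

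A further list held 60 genes of mitosis. In 44 of them every SS library lay above every AS library, against 12.4% of all genes with at least 15 counts. Of 45 tested 7 were called higher and 0 lower, against 0.911% and 0.0555% of all tested genes. The median log2 change was 2.56, against 0.08 for all tested genes. The list summed to 118 to 139 CPM in the AS libraries and 279 to 355 CPM in SS, a ratio of means of 2.51. Its genes of highest mean CPM, Bub3 and Cks2, had log2 changes of 0.08 and -0.30 (edgeR adjusted p = 0.915 and 0.671). Cks2 alone of the 45 was fitted lower. Incenp, the scaffold of the chromosomal passenger complex, rose from 1.04, 0.967 and 1.55 CPM to 10.4, 10.6 and 9.62 CPM (log2 difference 3.07, SE 0.413, adjusted p = 0.00892 by edgeR). Its SS libraries were nearly equal, unlike those of its partner Aurkb. Mad2l1, for the checkpoint protein MAD2, rose by 1.99 on the log2 scale (edgeR adjusted p = 0.0370), Tacc3, for a spindle microtubule protein, by 2.14 (0.0472 by edgeR) and Kifc1, for a minus-end kinesin, by 3.68 (0.0379 by edgeR). The number called was 0 when AS replicate 1, AS replicate 2 or SS replicate 2 was left out, and 1 when any other library was. It was 19 by DESeq2, 0 by limma-voom and 15 without AS replicate 1 and SS replicate 3. Incenp was called without AS replicate 3, SS replicate 1 or SS replicate 3, and Mad2l1, Tacc3 and Kifc1 in none of the fits that left out 1 library.

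The lists of the anaphase promoting complex, of cohesin and of the DREAM and RB families showed no call. Of 13 subunits of the anaphase promoting complex, 9 cohesin genes and 11 genes of the DREAM and RB families, 0 were called by edgeR, by DESeq2 or by limma-voom, and 0 had an unadjusted edgeR p under 0.05. Their median log2 changes were 0.11, 0.10 and 0.43, and the genes of lowest p were Anapc4 (0.61, edgeR adjusted p = 0.407), Pds5a (0.91, edgeR adjusted p = 0.538) and E2f4 (0.63, edgeR adjusted p = 0.438). Pds5a rests on 25.8 CPM in SS replicate 3, and its change was -0.23 without that library. The subunits of the complex summed to 399 to 454 CPM in the AS libraries and 389 to 490 CPM in SS, beside the rise of its activator Cdc20 and its partner enzyme Ube2c.

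Genes of S phase, when DNA is copied, lay between these lists. Of 30 tested, 0 were called by edgeR or limma-voom and 3 by DESeq2, while 13 had an unadjusted edgeR p under 0.05 and a higher SS level (background 9.12% of all tested genes). Every SS library lay above every AS library in 14 of the 30 (background 12.4% of all genes with at least 15 counts). The median log2 change was 0.95, and the list summed to 223 to 257 CPM in the AS libraries and 268 to 376 CPM in SS, a ratio of means of 1.37. Mcm2, a subunit of the replicative helicase, had the lowest p, at 2.65, 1.13 and 1.80 CPM in the AS libraries and 4.62, 11.4 and 9.47 CPM in SS (log2 difference 2.18, adjusted p = 0.0831 by edgeR). By edgeR 26 of the 30 S phase genes were fitted higher. Mcm10, Gins1, Dut and Tk1 were fitted lower, with log2 changes of -0.64, -0.19, -0.12 and -0.11. Mcm10 had the lowest p among the genes fitted lower (edgeR adjusted p = 0.397). Tk1 and Mcm10 had the highest mean CPM of the list, so the ratio of sums includes abundant genes that did not rise. The difference between the mitotic and S phase lists was not tested.

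Of 13 G1 cyclins, their kinases and CDK inhibitors, 11 were tested by edgeR, and all 11 were fitted higher, with a median log2 change of 0.77. At an unadjusted edgeR p under 0.05, 3 of them were higher, Ccnd1, Cdkn2c and Cdkn1a (background 9.12% of all tested genes). Cdkn1a alone was called by edgeR, DESeq2 or limma-voom (edgeR background 0.911% called higher). It encodes p21, an inhibitor of cyclin-dependent kinases, and stood at 13.9, 5.80 and 4.01 CPM in the AS libraries and 37.6, 42.9 and 51.2 CPM in SS (log2 difference 2.47, SE 0.431, adjusted p = 0.0322 by edgeR). The SS libraries lay well above the AS libraries, of which replicate 1 was again the highest. Without AS replicate 1 the log2 difference of Cdkn1a was 3.17 (edgeR adjusted p = 0.0174), and in each of the other fits that left out 1 library the call was lost (up to 0.176).

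**Figure D4:**
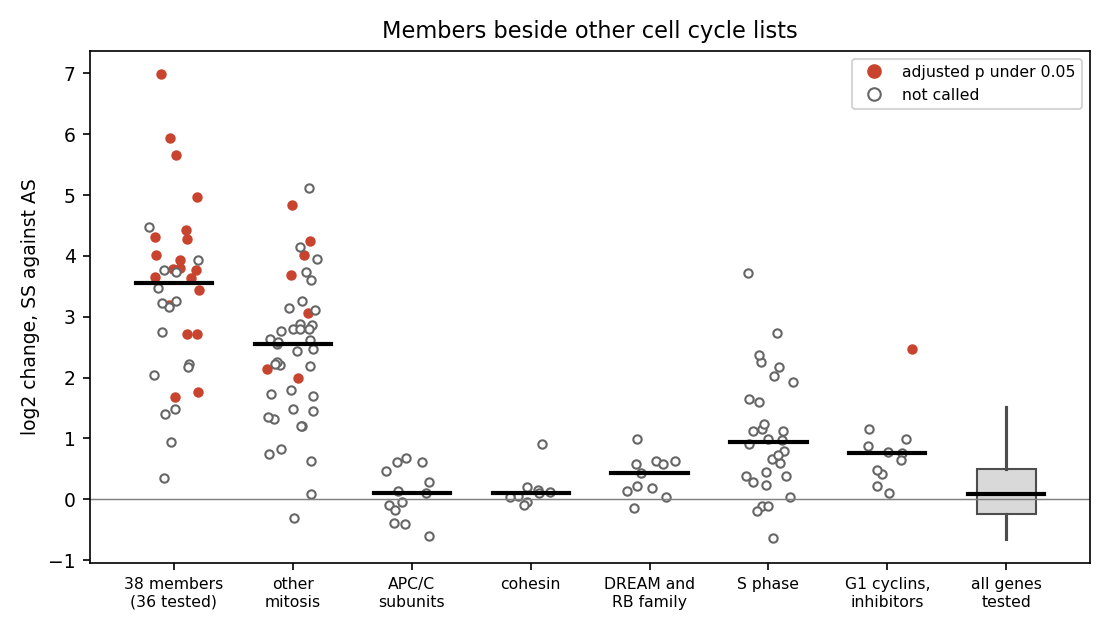
Fitted log2 change, SS against AS, of each tested gene in the members and in 6 other cell cycle lists, with the list median as a black line and called genes in red; the grey box gives the quartiles of all 12622 tested genes and its whiskers the 5th and 95th percentiles. The members have a median of 3.56, the other mitosis genes 2.56 and the S phase genes 0.95, and the anaphase promoting complex and cohesin lists sit near 0.

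Markers of several cell types moved with the members, and their part in the result was not tested. Over all tested genes, 0.911% were called higher by edgeR, and 9.12% were higher at an unadjusted edgeR p under 0.05. The hepatocyte markers that define the tissue were abundant in every library, with Alb at 49637 CPM or more, and 0 of 10 were called by edgeR (2 lower at an unadjusted p under 0.05, 2 lower by DESeq2, 0 by limma-voom). Red cell precursor markers summed to 47.3, 61.9 and 66.4 CPM in the AS libraries and 263, 477 and 536 CPM in SS, with 6 of 13 tested called higher, among them Alas2, and Gata1 at 0 counts in all AS libraries. The SS libraries had the same order in these markers as in the members, while AS replicate 1 was the lowest of its group in the markers and the highest in the members. That SS order was not particular to red cell markers. Stellate cell markers also had it (473, 580 and 754 CPM), with AS replicate 1 the highest of its group (435, 385 and 365 CPM). Klf1, an erythroid transcription factor of the red cell precursor list, had a log2 difference of -0.86 (edgeR adjusted p = 0.491, 3.11, 8.05 and 8.10 CPM in AS, 2.24, 4.42 and 3.83 CPM in SS). Neutrophil and precursor markers summed to 19.97 to 35.5 CPM in the AS libraries and 184, 480 and 252 CPM in SS, with 3 of 8 tested called higher and Elane, Ctsg and Ltf at 0 in AS. Lcn2, which hepatocytes can also make, gave 14.2 to 26.6 CPM of this sum in AS and 125, 362 and 221 CPM in SS, and the other genes of the list gave 8.87, 5.80 and 3.93 CPM in AS and 58.7, 118.2 and 30.8 CPM in SS.

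Recruited macrophage markers summed to 126 to 128 CPM in the AS libraries and 278 to 330 CPM in SS, with 5 of 10 called higher. Kupffer cell markers had 0 of 6 called by edgeR (4 at an unadjusted p under 0.05, 0 by DESeq2 and 0 by limma-voom) and summed to 543 to 693 CPM in the AS libraries and 675 to 1768 CPM in SS. Markers of B and plasma cells reached 6.12 to 11.1 CPM in the AS libraries and 15.8 to 30.4 CPM in SS, with 0 of 5 called by edgeR (2 at an unadjusted p under 0.05, 0 by DESeq2 and 0 by limma-voom). Those of T and NK cells stood at 5.30 to 11.1 CPM in the AS libraries and 4.62 to 12.5 CPM in SS, with 0 of 4 called by edgeR, DESeq2 or limma-voom and 0 at an unadjusted edgeR p under 0.05. Bile duct markers ranged from 92.6 to 108 CPM in AS and from 130 to 272 CPM in SS. By edgeR 0 of 5 bile duct genes tested were called (2 at an unadjusted p under 0.05, 0 by DESeq2 and 0 by limma-voom). Spp1 stands in both the bile duct and the macrophage list, and gave 69.8 to 95.7 CPM of each sum in AS and 102 to 219 CPM in SS. With 1 library left out, the calls ranged from 2 to 5 of the red cell precursor, from 1 to 3 of the neutrophil, from 1 to 4 of the recruited macrophage and from 0 to 3 of the stellate cell markers. Fewest were called without AS replicate 1 in each of these lists, alone or level with other libraries. Of 8 stellate cell markers 2 were called higher, and their sums ranged from 365 to 435 CPM in AS and from 473 to 754 CPM in SS. Sinusoidal endothelial markers overlapped between the groups (244 to 382 CPM in AS, 285 to 481 CPM in SS), with 0 of 7 called by edgeR, 1 at an unadjusted p under 0.05, 1 by DESeq2 and 0 by limma-voom.

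**Figure D5:**
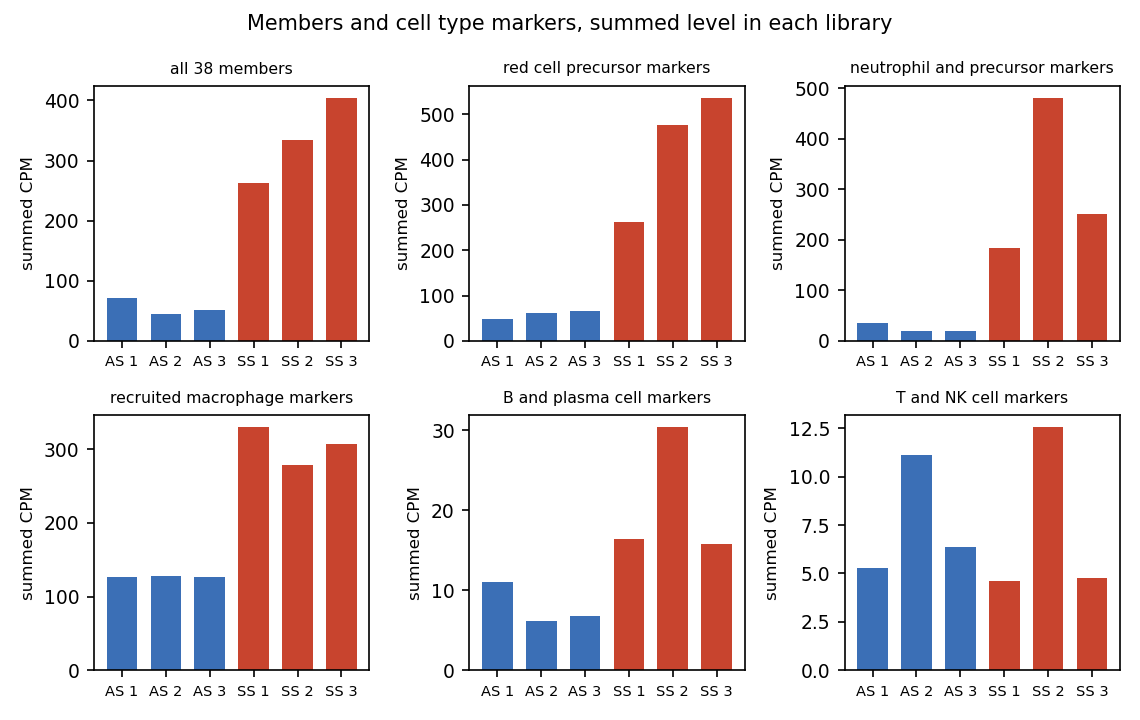
Summed CPM of the members and of 5 lists of cell type markers in each library, AS in blue and SS in red, each panel with its own axis from 0. Red cell precursor and neutrophil markers are higher in every SS library than in any AS library, as the members are, while T and NK cell markers overlap between the groups.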

How the data were processed

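Liver RNA was sequenced in 3 AS and 3 SS libraries. The authors deposited raw read counts per gene symbol for each library. The tools that made them were HISAT2 and HTSeq, on mm10, per the submitters' processing notes; versions, annotation, strand setting and filters are not given in the sources used here. The 5 counter lines per table entered neither library sizes nor tests, and such counting can drop or split reads of near copies and overlapping genes.

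The main test was edgeR 4.0.16 (R 4.3.3) on all genes that passed filterByExpr (minimum count 10, minimum total 15): TMM factors, a robust quasi-likelihood fit of genotype over all 6 libraries, a two-sided F-test and Benjamini-Hochberg adjustment over 12622 genes, with calls at 0.05. The SE was derived from the F statistic. CPM used the same factors, and ± is the SD of 3 libraries. Counting intervals are exact 95% binomial intervals of summed counts. Reads are not unique molecules, so they cover counting error only. The procedure was tested on simulated data.

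Members, lists, alternatives and the rule for named genes (all members, up to 4 genes of each cell cycle list and up to 3 of each marker list) were chosen with earlier results of these data known. Other genes were named as values of a list, or as overlapping neighbours, after their values were seen. Overlaps, lengths and near copies (at least 200 aligned bases at 90% identity) came from GENCODE M21 on the same build, where all 38 members matched, 1 of them by a newer symbol.

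Alternatives were other scaling factors, other filters, a replicate block, a non-robust fit, DESeq2 1.42.0, limma-voom (limma 3.58.1), each library left out in turn, AS replicate 1 left out together with SS replicate 3, and AS replicates 2 and 3 summed. Markers of 1 cell type are not reported here.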

Additional observations from a re-analysis of the deposited data

How the results depend on the processing

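Each member that entered a fit had a higher fitted value in SS under every alternative run, and 0 were called lower; Melk and Anln entered only the fits in which they passed the filter. With all libraries, 122 genes and 20 members were called. Members called and all genes called were 2 and 31 by limma-voom, 30 and 368 by DESeq2, 32 and 460 with the replicate block, 23 and 662 with AS replicate 1 left out together with SS replicate 3, and 7 and 31 with AS replicates 2 and 3 summed. Leaving out 1 library gave 2 to 12 members and 22 to 99 genes. Without the low count filter 217 genes were called. The cause of these differences was not tested, and fits that leave libraries out also hold fewer of them. Median-ratio factors, upper-quartile factors, library totals alone, a non-robust fit and a stricter filter gave 18 to 22 members.

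With library totals alone the median log2 change of all tested genes was 0.36 instead of 0.08, and that of the members 3.84 instead of 3.56. Each median shifted by 0.28, while single genes shifted by other amounts, as Ccnf from 0.35 to 0.67 and Ccna2 from 1.68 to 1.94. Of the calls of all genes, 94.3% were higher in SS, against 79.8% with the replicate block, 74.7% by DESeq2 and 52.3% without AS replicate 1 and SS replicate 3. Between AS and SS libraries of the same number, deviations from the group means correlated at 0.0497, -0.120 and 0.193 for numbers 1, 2 and 3. Between libraries of different numbers the correlations ran from -0.224 to 0.241. With 3 libraries per group, these values cannot decide whether replicate numbers pair the libraries. The change of Pds5a was 1.27 without SS replicate 2 and reversed without SS replicate 3 (-0.23) and without AS replicate 1 and SS replicate 3 (-0.45). With 6 AS counts or fewer, as in Bub1b, Ttk, Casc5, Hmmr, Cdkn3, Espl1 and Melk, depth limits how precisely a fold can be given.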
